A study of Mus musculus with 7 samples.

Results

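The HoxA, HoxC and HoxD clusters are described here through the H3K27me3 islands that lay over them in mouse liver. H3K27me3 is the trimethylation of lysine 27 of histone H3, and an island is a stretch of the genome in which the chromatin immunoprecipitation reads of a library were called enriched. Members were all islands that overlapped 1 of 3 windows of the mm9 genome: chromosome 6 from 52080000 to 52290000 for HoxA with Evx1, chromosome 15 from 102730000 to 102890000 for HoxC, and chromosome 2 from 74470000 to 74620000 for HoxD with Evx2. The rule goes by position, but it was set with earlier results of these data known. HoxB, which had no island in some lists, is not among the members and is described apart. Of the 122262 islands in 7 lists 26 met the rule, 11 at HoxA, 7 at HoxC and 8 at HoxD. The windows hold 30 protein-coding genes named by the rule.

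Each list came from the liver of a different male CD-1 mouse of 7 weeks, an outbred stock. Vehicle was given to 3 mice as 1% DMSO in corn oil, and 4 mice received TCPOBOP at 3 mg/kg. All were collected after 27 h. TCPOBOP is a ligand of the constitutive androstane receptor, a nuclear receptor that turns on drug-metabolising enzymes in hepatocytes, and the comparison asks whether it altered the repressive mark. Whole liver holds several cell types, so an island cannot be assigned to hepatocytes. The lists hold a histone mark and no expression, so the tissue label was not checked against markers. Lists held between 14167 and 20550 islands, and no read numbers were given in them, so the depth behind an island is unknown.

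Hox genes encode homeodomain transcription factors that set positional identity along the body axis of the embryo. Their order along each cluster matches the order in which they act, from the head end, where Hoxa2 and Hoxd1 lie, to the tail and limb end, where Hoxa13, Hoxc13 and Hoxd13 lie. Evx1 and Evx2, homeobox genes related to even-skipped, flank the tail end of HoxA and HoxD. Polycomb repressive complex 2, which deposits H3K27me3, is known to hold silent Hox clusters in broad domains. CpG-rich DNA is a known feature of Polycomb targets.

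In the gene order of RefSeq on GRCm38.p6, the HoxA members run from Hoxa2 at the low-coordinate end to Evx1 at the high end. Those of HoxC run from Hoxc13 to Hoxc4, and those of HoxD from Evx2 to Hoxd1. Between those outermost members RefSeq lists 23, 14 and 16 genes. All 30 protein-coding ones are members. The others include the long non-coding RNAs Hottip in HoxA, Hotair in HoxC and Haglr in HoxD, and 4 microRNA genes. No mm9 gene positions were used, so an island is placed against an end of a cluster and not against a single gene.

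The promoters of the outermost members are shown, since these members lie nearest the ends of each cluster. None of these promoters was placed against the end of an island. Each runs from 250 bases before to 50 after the RefSeq start on GRCm38.p6, whose coordinates differ from mm9, with every CG dinucleotide in capitals. Hoxa2, which patterns the second branchial arch, lies at chr6:52164782-52165081 on the minus strand, and Evx1 at chr6:52313248-52313547 on the plus strand. Hoxc4 lies at chr15:103034145-103034444 on the plus strand, Evx2 at chr2:74659508-74659807 on the minus strand and Hoxd1 at chr2:74762730-74763029 on the plus strand. Hoxc13 is named only.
Hoxa2: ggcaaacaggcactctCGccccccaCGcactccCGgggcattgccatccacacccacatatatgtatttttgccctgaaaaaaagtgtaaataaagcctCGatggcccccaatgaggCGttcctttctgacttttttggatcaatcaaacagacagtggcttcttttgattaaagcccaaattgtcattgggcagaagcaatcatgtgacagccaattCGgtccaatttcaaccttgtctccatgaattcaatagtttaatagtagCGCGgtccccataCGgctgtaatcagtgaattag
Evx1: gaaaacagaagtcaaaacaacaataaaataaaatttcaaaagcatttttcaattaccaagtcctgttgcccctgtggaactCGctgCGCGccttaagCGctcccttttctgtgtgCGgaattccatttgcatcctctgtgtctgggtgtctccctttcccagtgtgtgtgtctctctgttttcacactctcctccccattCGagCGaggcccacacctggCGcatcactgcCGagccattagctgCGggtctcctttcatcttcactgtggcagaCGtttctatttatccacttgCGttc
Hoxc4: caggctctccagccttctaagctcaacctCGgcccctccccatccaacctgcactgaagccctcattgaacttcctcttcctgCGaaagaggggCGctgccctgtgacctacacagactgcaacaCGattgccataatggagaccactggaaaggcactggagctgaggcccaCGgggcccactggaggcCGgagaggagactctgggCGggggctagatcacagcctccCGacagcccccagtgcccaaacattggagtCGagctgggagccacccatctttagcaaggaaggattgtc
Evx2: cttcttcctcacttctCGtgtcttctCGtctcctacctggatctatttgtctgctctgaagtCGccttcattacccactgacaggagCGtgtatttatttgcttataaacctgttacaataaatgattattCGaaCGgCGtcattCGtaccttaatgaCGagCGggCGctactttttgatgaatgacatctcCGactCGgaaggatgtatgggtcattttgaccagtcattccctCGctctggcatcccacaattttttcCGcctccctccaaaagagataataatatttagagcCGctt
Hoxd1: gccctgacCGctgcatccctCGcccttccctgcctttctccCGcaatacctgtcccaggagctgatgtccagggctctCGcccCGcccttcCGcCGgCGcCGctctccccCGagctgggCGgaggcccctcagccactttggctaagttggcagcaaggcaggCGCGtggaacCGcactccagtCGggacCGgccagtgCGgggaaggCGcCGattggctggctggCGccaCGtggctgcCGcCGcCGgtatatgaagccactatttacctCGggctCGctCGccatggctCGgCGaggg

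The motif searched was CG, which reads the same on both strands. Promoter entries matched 21 of the 30 members, 10 of HoxA, 10 of HoxD and 1 of HoxC, with 23 promoters in all. These held a median of 16 CG, from 4 in Hoxa9, Hoxd4 and a promoter of Hoxd11 to 45 in Hoxa13. Over all 32851 promoters of the same length the median was 7, and 94.6% of them held at least 1 CG. At least 10 CG were found in 16 of the 23 member promoters (69.6%) and in 43.5% of all promoters. The median ratio of observed to expected CG was 0.71 in the members and 0.384 in all. Of the promoters printed, that of Hoxd1 had 29 CG and a ratio of 0.805, that of Evx2 16 and 1.13, that of Evx1 12 and 0.71, that of Hoxa2 9 and 0.589, and that of Hoxc4 9 and 0.333. CG content thus differed widely among the promoters of the outermost members.

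MicroRNA genes inside the clusters share the windows with the members, and their 5′ mature sequences are given with the seed, bases 2 to 8, in capitals. Mir196b lies between Hoxa9 and Hoxa10, Mir196a-2 between Hoxc10 and Hoxc9, Mir615 at Hoxc5 and Mir10b beside Hoxd4.
miR-196b-5p: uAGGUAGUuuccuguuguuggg
miR-196a-5p: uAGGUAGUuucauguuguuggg
miR-615-5p: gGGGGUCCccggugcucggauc
miR-10b-5p: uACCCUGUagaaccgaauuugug
The pair from HoxA and HoxC has the same seed, and the other two have seeds of their own.

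H3K27me3 islands covered nearly all of the 3 clusters in every liver. The HoxC window, which the rule sets for Hoxc13 to Hoxc4, was under 1 island over its whole length in 7 of 7 lists, the fullest cover of the 3. HoxD was covered over the whole window in 4 lists and HoxA in 2, and the lowest cover was 97.6% for HoxD and 95.4% for HoxA. No stretch of a window was free of islands in all lists.

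For HoxA the cover of the window was 95.4% in vehicle replicate 1, 100% in vehicle replicate 2 and 98.7% in vehicle replicate 3. In TCPOBOP replicates 1 to 4 it was 98.5%, 100%, 96.8% and 98.3%. Values of both groups interleave, with vehicle replicate 1 lowest and a full window in 1 liver of each group. The means were 98.0 ± 2.35% (SD, n = 3) with vehicle and 98.4 ± 1.32% (SD, n = 4) with TCPOBOP, a difference of 0.349 percentage points (95% interval -3.42 to 4.57; two-sided exact permutation p = 0.886, adjusted p = 1). The difference turned to -0.952 without vehicle replicate 1 and to -0.19 without TCPOBOP replicate 2.

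HoxD was covered to 100% in all 3 vehicle livers and to 100%, 99.7%, 97.6% and 99.5% in TCPOBOP replicates 1 to 4. The groups meet at 100%, and the shortfall in 3 TCPOBOP livers was 0.4, 3.6 and 0.8 kb at the Evx2 side. TCPOBOP livers had a mean of 99.2 ± 1.09% (SD, n = 4), and the difference of -0.8 percentage points was within the spread of the livers (95% interval -4.53 to 1.06; exact permutation p = 0.257, adjusted p = 0.926). Counted over a window 50 kb wider on each side, the difference turned to 1.63. HoxC, at 100% in every liver, gave no difference to test within its window, and over the wider window it differed by -1.71 percentage points (exact permutation p = 0.114). Adjusted values in this and the following comparisons are over 9 tests, with HoxC cover counted among them. The smallest p that 35 splits of the livers allow is 0.0286.

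**Figure D1:**
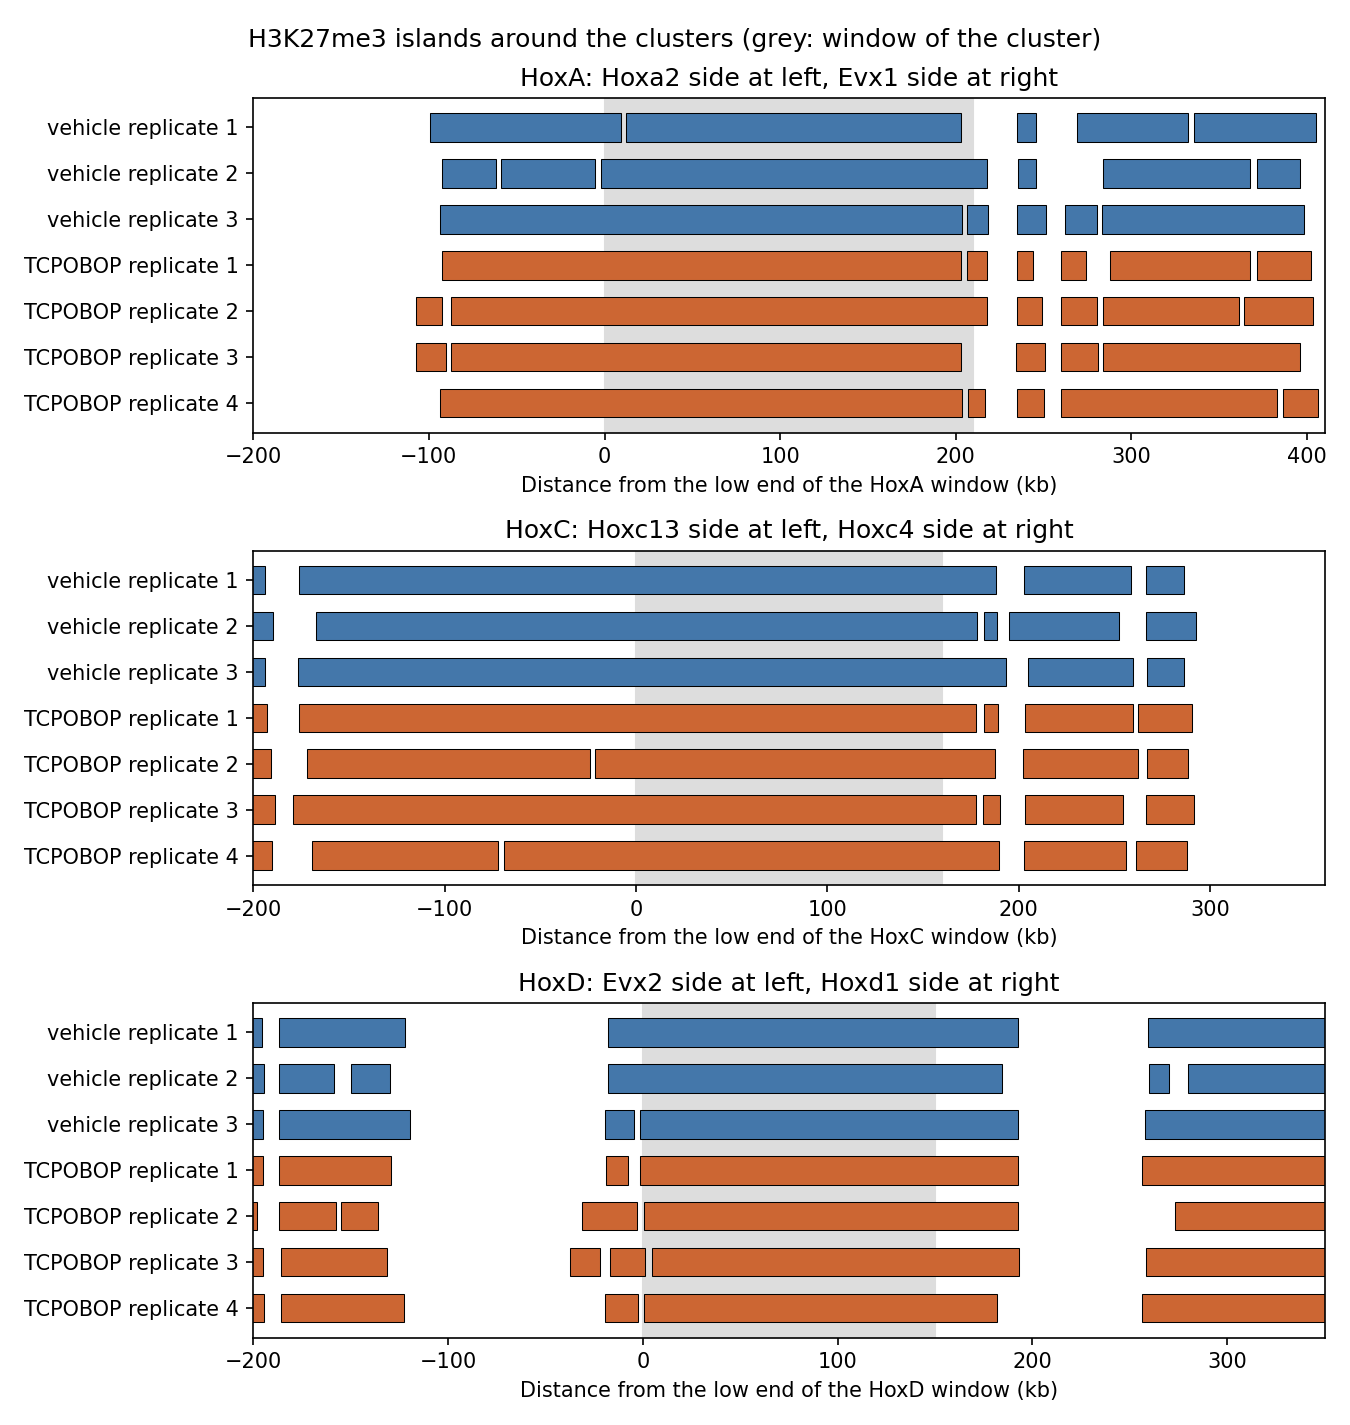
Islands of the 7 lists over each cluster and 200 kb on either side. The horizontal axis is the distance in kb from the low end of the window, each bar is 1 island in 1 liver (blue for vehicle, orange for TCPOBOP), and the grey band is the window. The HoxC window lies under 1 island in all 7 livers, while the HoxA and HoxD islands are broken near the Evx1 and Evx2 ends in some.

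The livers shared a long unbroken core over each cluster. In HoxA the part under islands in all 7 lists ran without a break from 52092001 to 52283200, or 191.2 kb. In HoxC it ran from 102708801 to 102907600, or 198.8 kb, and in HoxD from 74474801 to 74651600, or 176.8 kb. These cores took in 91.0%, 100% and 96.8% of the 3 windows. Among the 16958 stretches of the genome under islands in all 7 lists, which had a median length of 11.6 kb and a longest of 337.2 kb, the HoxC core was the 7th longest, the HoxA core the 8th and the HoxD core the 11th. Of the 52 bins of 10 kb in the windows, 48 (92.3%) were fully covered in all 7 lists. The share was 12.5% over the 105462 bins of the genome that had an island in any list. Those bins were not matched for the width of the islands around them.

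Agreement between livers was also high over the whole merged regions, in which the islands of all lists that overlap or touch are joined. The region that holds HoxA spanned 326.0 kb, that of HoxC 372.8 kb and that of HoxD 230.8 kb. The share of the region under islands in all 7 lists was 86.4% for HoxA, 92.5% for HoxC and 80.8% for HoxD. The median was 37.9% over the 6624 regions with an island in every list and 57.5% over the 549 of these that were at least 200 kb long. Among those 549 long regions HoxA stood at percentile 95.1, HoxC at 99.1 and HoxD at 87.1.

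**Figure D2:**
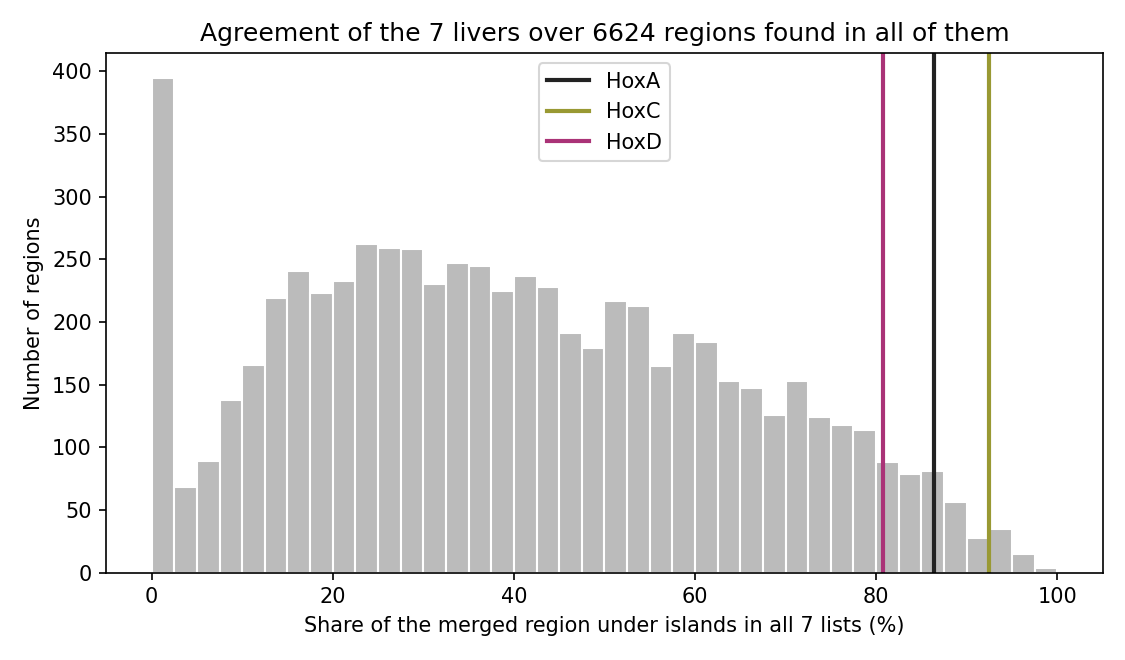
Share of each merged region that lay under islands in all 7 lists, in percent, for the 6624 regions with an island in every list. Bars count regions, and the lines mark HoxA at 86.4%, HoxC at 92.5% and HoxD at 80.8%, all far above the median of 37.9%. The median of the 549 regions of at least 200 kb was 57.5%.

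Any pair of livers overlapped almost fully inside the windows. The Jaccard index, the length shared by 2 lists divided by the length in either, was 1 for all 21 pairs at HoxC, between 0.954 and 1 at HoxA and between 0.971 and 1 at HoxD. For HoxA its mean was 0.978 over the 9 pairs within groups and 0.981 over the 12 pairs between them. The corresponding means for HoxD were 0.99 and 0.992. Livers of the same treatment thus had no higher mean than livers of different treatment, a comparison for which no test was run.

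Breaks in the 3 regions were short and few. The lists were made with a gap of 2.4 kb, so that shorter gaps were bridged, and the 19 breaks between islands of the 3 merged regions measured 2.8 to 6.0 kb. Of these, 17 were no longer than 4.8 kb. HoxA had 8 breaks in 7 lists, HoxC 5 breaks in 5 lists and HoxD 6 breaks in 5 lists. Inside the windows themselves there were 4 breaks at HoxA, 0 at HoxC and 1 at HoxD.

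The HoxA breaks inside the window sat at its ends. Vehicle replicate 1 lacked 2.8 kb from 52089201 to 52092000, near the Hoxa2 end. At the Evx1 end the islands stopped at 52283200 or 52283600 in 5 of 7 lists. In vehicle replicate 3 and TCPOBOP replicates 1 and 4 a small island of 9.6 to 12 kb followed after a break of 2.8, 3.2 and 3.6 kb. These small islands had scores of 77.5 to 107.0 and ranked between 12569 and 17782 in their lists. Vehicle replicate 1 and TCPOBOP replicate 3 had no such island, while vehicle replicate 2 and TCPOBOP replicate 2 were covered without interruption to 52297600 and 52298000. The same edge therefore recurred in livers of both groups.

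At HoxD a break within 10 kb of the Evx2 end of the window was present in 1 of 3 vehicle and 4 of 4 TCPOBOP livers. It ran from 74465601 to 74468400 in vehicle replicate 3, from 74462401 to 74468400 in TCPOBOP replicate 1 and from 74467201 to 74470400 in TCPOBOP replicate 2. TCPOBOP replicates 3 and 4 had it from 74471201 to 74474800 and from 74467601 to 74470800. Vehicle replicates 1 and 2 were continuous there, down to 74452001. The 5 breaks did not all overlap, and measured 2.8 to 6.0 kb. This count was picked out after its values were seen and was not tested. The cover of the 10 kb bin that holds the end of the window, from 74470001 to 74480000, was 100% with vehicle and 88% with TCPOBOP. The difference was -12 percentage points (SE 9.38, limma adjusted p = 0.9), and the groups overlapped. Here and below, an SE is that of limma, whose variance is drawn towards that of features with similar cover. It is not the spread of these livers alone.

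Islands over the windows reached well past the clusters at 1 end of HoxA, both ends of HoxC and the Hoxd1 end of HoxD. An extension is measured here from an end of the window to the outer end of the outermost island that overlaps the window, and is negative where that island ends inside. Beyond the Hoxa2 end it was 99.6, 2.0 and 93.6 kb in vehicle replicates 1 to 3 and 92.8, 87.6, 87.6 and 93.6 kb in TCPOBOP replicates 1 to 4. Vehicle replicate 2 alone was short, and there the next island began after a break of 3.2 kb. The means were 65.1 ± 54.7 kb (SD, n = 3) and 90.4 ± 3.25 kb (SD, n = 4), a difference of 25.3 kb (95% interval -11.9 to 91.5; exact permutation p = 0.514, adjusted p = 0.926). Without vehicle replicate 2 it turned to -6.2 kb, and with islands joined across gaps of up to 4.8 kb, a setting added after the data were examined, it was 5.2 kb.

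Beyond the Evx1 end the extension was -6.8, 7.6 and 8.4 kb with vehicle and 8.0, 8.0, -6.8 and 6.8 kb with TCPOBOP. A single liver of each group ended inside the window and the others ended within 1.6 kb of each other. The difference was 0.933 kb (95% interval -24.2 to 14.8; exact permutation p = 0.886, adjusted p = 1), and it turned to -4.0 kb without vehicle replicate 1 and to -0.4 kb without TCPOBOP replicate 1 or 2. Past the region lay 16.0 kb with no island in any list on this side, and 153.6 kb on the Hoxa2 side.

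At HoxC the extension beyond the Hoxc13 end had the longest mean of the 6 sides in both groups. It was 176.0, 167.2 and 176.4 kb in vehicle replicates 1 to 3 and 176.0, 21.2, 179.2 and 69.2 kb in TCPOBOP replicates 1 to 4. TCPOBOP replicates 2 and 4 stood apart, and in both a break of 2.8 kb, 1 window of 400 bp more than the gap setting, separated the next island. The means were 173.2 ± 5.2 kb (SD, n = 3) and 111.4 ± 78.9 kb (SD, n = 4), a difference of -61.8 kb (95% interval -272.2 to 96.238; exact permutation p = 0.4, adjusted p = 0.926). Joined across gaps of up to 4.8 kb, these 2 livers reached 172.0 and 169.2 kb and the difference turned to 0.9 kb. On the Hoxc4 side the extension was 28.0, 18.4 and 33.6 kb with vehicle and 17.6, 27.6, 18.0 and 30 kb with TCPOBOP, a difference of -3.37 kb (95% interval -16.7 to 12.3; exact permutation p = 0.514, adjusted p = 0.926), or 0.1 kb without vehicle replicate 3 and -0.833 kb with joined gaps. Both groups held livers near 18 kb and near 30 kb, and those near 18 kb each had a break of 3.2 to 4.4 kb followed by a further island.

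HoxD was lopsided the other way, with a short reach on the Evx2 side. There the extension was 18.0, 18.0 and 1.6 kb with vehicle and 1.6, -0.4, 16.8 and -0.8 kb with TCPOBOP, a difference of -8.23 kb (95% interval -20.1 to 20.9; exact permutation p = 0.2, adjusted p = 0.926). It was 18.0 kb in the 2 livers with no break at this end. In TCPOBOP replicate 3 the break lay inside the window, so that the small island of 18 kb beyond it still counted. The other 4 livers, of both groups, ended between -0.8 and 1.6 kb. With islands joined across gaps of up to 4.8 kb the extension was 16.8 to 19.2 kb in 5 livers, 1.6 kb in TCPOBOP replicate 1 and 31.2 kb in TCPOBOP replicate 2, and the difference was -1.2 kb. With islands at or above the median score of their list it was -13.6 kb (exact permutation p = 0.0571). On the Hoxd1 side it was 42.8, 34.4 and 42.4 kb with vehicle and 42.8, 42.4, 43.2 and 31.6 kb with TCPOBOP. The difference of 0.133 kb (95% interval -19.5 to 8.78; exact permutation p = 0.914, adjusted p = 1) turned to -2.6 kb without vehicle replicate 2 and lay between -0.933 and -0.667 kb without TCPOBOP replicate 1, 2 or 3 (-0.8, -0.667 and -0.933 kb). The HoxD region had 82.0 kb without an island in any list below it and 62.8 kb above it, and the HoxC region 9.6 and 1.2 kb.

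The 50 kb next to each window showed the same sides. Below HoxA, at the Hoxa2 end, 93.6% to 100% of them lay under islands, and above it, at the Evx1 end, 21.6% to 50.4%. HoxC had 94.4% to 100% below and 63.2% to 80.8% above. At HoxD it was 25.6% to 64.8% on the Evx2 side and 63.2% to 86.4% on the Hoxd1 side. The lowest value on the fuller side of HoxA was thus above the highest on its other side. At HoxD the ranges met at 63.2% and 64.8%, but the Hoxd1 side was the fuller in every liver. From 50 to 200 kb away HoxA had the opposite order, with 26.1% to 36.5% on the Hoxa2 side and 72.5% to 95.2% on the Evx1 side. There HoxC had 84.3% to 93.6% below and 45.9% to 51.7% above. HoxD had 33.3% to 48% on the Evx2 side and 51.2% to 62.7% on the Hoxd1 side.

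**Figure D3:**
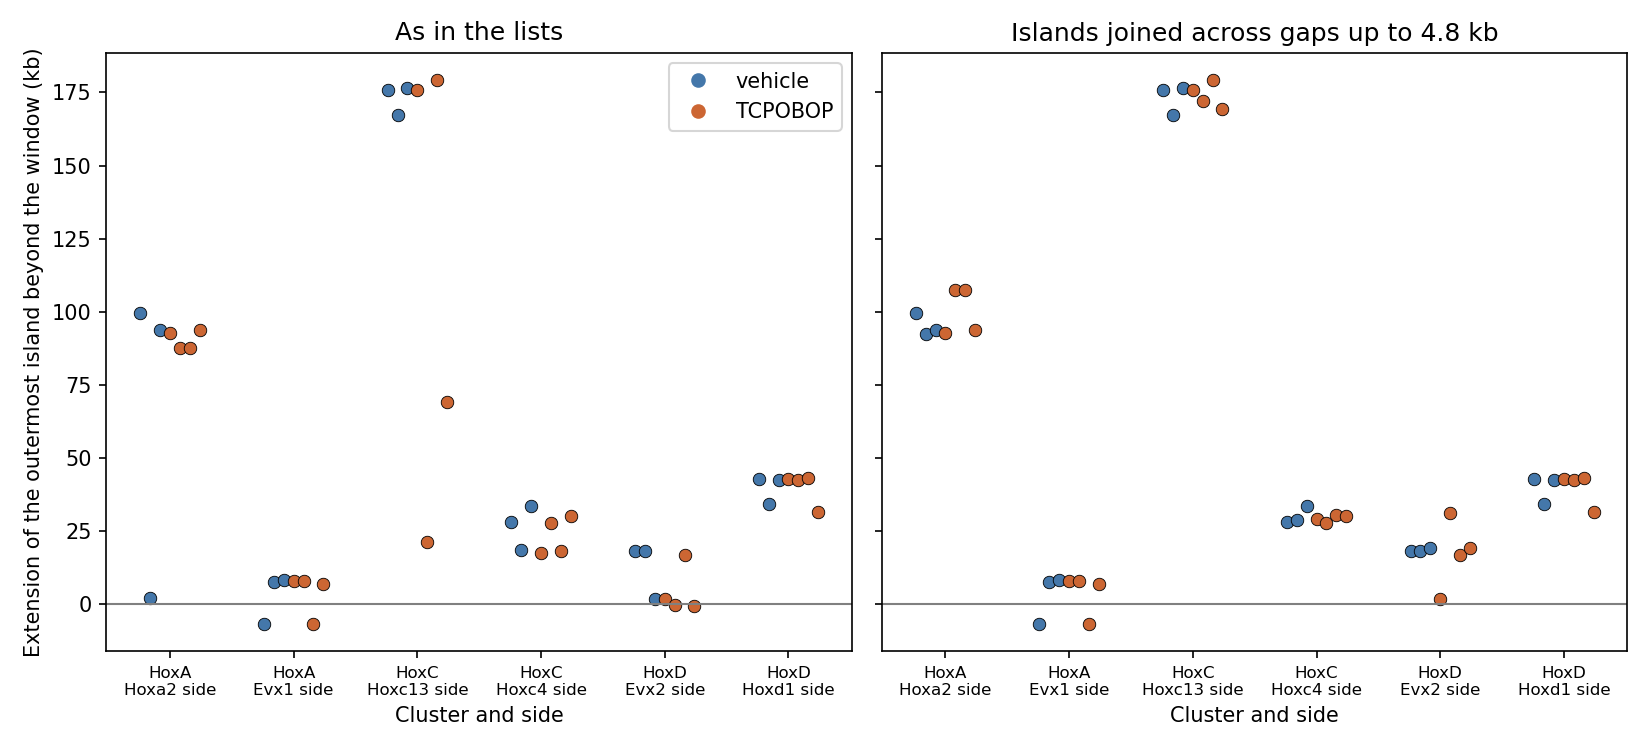
Extension of the outermost overlapping island beyond each end of the 3 windows, in kb, as in the lists (left) and with islands joined across gaps of up to 4.8 kb (right). Each point is 1 liver, blue for vehicle and orange for TCPOBOP. At the Hoxc13 side TCPOBOP replicates 2 and 4 move from 21.2 and 69.2 kb to 172.0 and 169.2 kb once gaps are joined.

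No change of cover with TCPOBOP was detected in these regions. Across the genome limma called 0 of 13988 merged regions at an adjusted p under 0.05 (0% called; 542 had an unadjusted p under 0.05, and limma without trend and robust variance called 13, of which 0 held a cluster). Cover of the HoxA region was 93.3% with vehicle and 95.3% with TCPOBOP, a difference of 2.00 percentage points (SE 3.7, limma adjusted p = 1). The HoxC region had 97.1% and 96.6%, a difference of -0.545 (SE 3.15, limma adjusted p = 1). Cover of the HoxD region was 89.8% and 91.6%, a difference of 1.76 (SE 4.79, limma adjusted p = 1). These SE values rest on the variance that limma shares among features, and not on the spread of these livers alone. Groups overlapped in all 3 regions, where 3.45% of the regions tested had groups that did not overlap.

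The same fit over bins of 10 kb called 0 of 76433 (0% called; 2287 had an unadjusted p under 0.05, and limma without trend and robust variance called 173, 0 of them in the clusters). In the windows 48 of the 52 bins had the same cover in all livers and could not be tested, and the other 4 were 3 bins of HoxA and 1 of HoxD. Their groups overlapped in 4 of 4, against a background of 2.08% of bins without overlap, and their lowest unadjusted p was 0.225. The HoxA bins at the Hoxa2 end, from 52080001 to 52090000 and from 52090001 to 52100000, had 97.3% and 93.3% cover with vehicle and 100% in each with TCPOBOP. Both shortfalls came from vehicle replicate 1. The bin at the Evx1 end, from 52280001 to 52290000, had 68% with vehicle and 66% with TCPOBOP, and livers of either group ran from 32% to 100%.

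The islands over the clusters were among the highest scored of every list. The score is the authors' own value per island, which grows with its length and with the reads of the library, and was used only to rank islands within a list. In the order vehicle replicates 1 to 3 and TCPOBOP replicates 1 to 4, the best HoxC island ranked 1, 2, 2, 2, 5, 2 and 3. The best HoxA island ranked 6, 4, 3, 4, 3, 3 and 2. The best HoxD island ranked 12, 9, 9, 9, 10, 9 and 7. HoxD was thus behind the other 2 in 7 of 7 lists, and HoxC was ahead of HoxA in 5. In TCPOBOP replicates 2 and 4, where HoxA was ahead, the break of 2.8 kb had split the HoxC domain. Over all islands of the merged region the summed scores ran HoxC, HoxA, HoxD from high to low in 7 of 7 lists, and so did the length covered, with 352.4 to 370.0 kb for HoxC, up to 320.8 kb for HoxA and 197.6 to 222.0 kb for HoxD.

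Divided by length, the ranges of the 3 clusters overlapped. The best island had a score per window of 400 bp that was 3.18 to 5.65 times the median of its list at HoxA, 3.11 to 5.37 times at HoxC and 3.03 to 4.97 times at HoxD. By this density HoxA ranked 33 to 139, HoxC 45 to 161 and HoxD 47 to 111 in their lists, all above percentile 99. Over the merged region the mean score per window was 7.38 to 13.8 at HoxA, 7.95 to 13.4 at HoxC and 7.76 to 15.0 at HoxD. Over the region HoxD was densest in 5 of 7 lists and HoxC in the other 2, while by the best island HoxC was densest in 3 lists and HoxA and HoxD in 2 each. The best islands were also wide, 191.2 to 305.6 kb at HoxA, 208.8 to 370.0 kb at HoxC and 180.8 to 210.8 kb at HoxD, where the median island of a list was 20.8 to 31.2 kb wide. Ranks and densities were not compared between groups, since the lists differ in length and their depth is unknown.

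**Figure D4:**
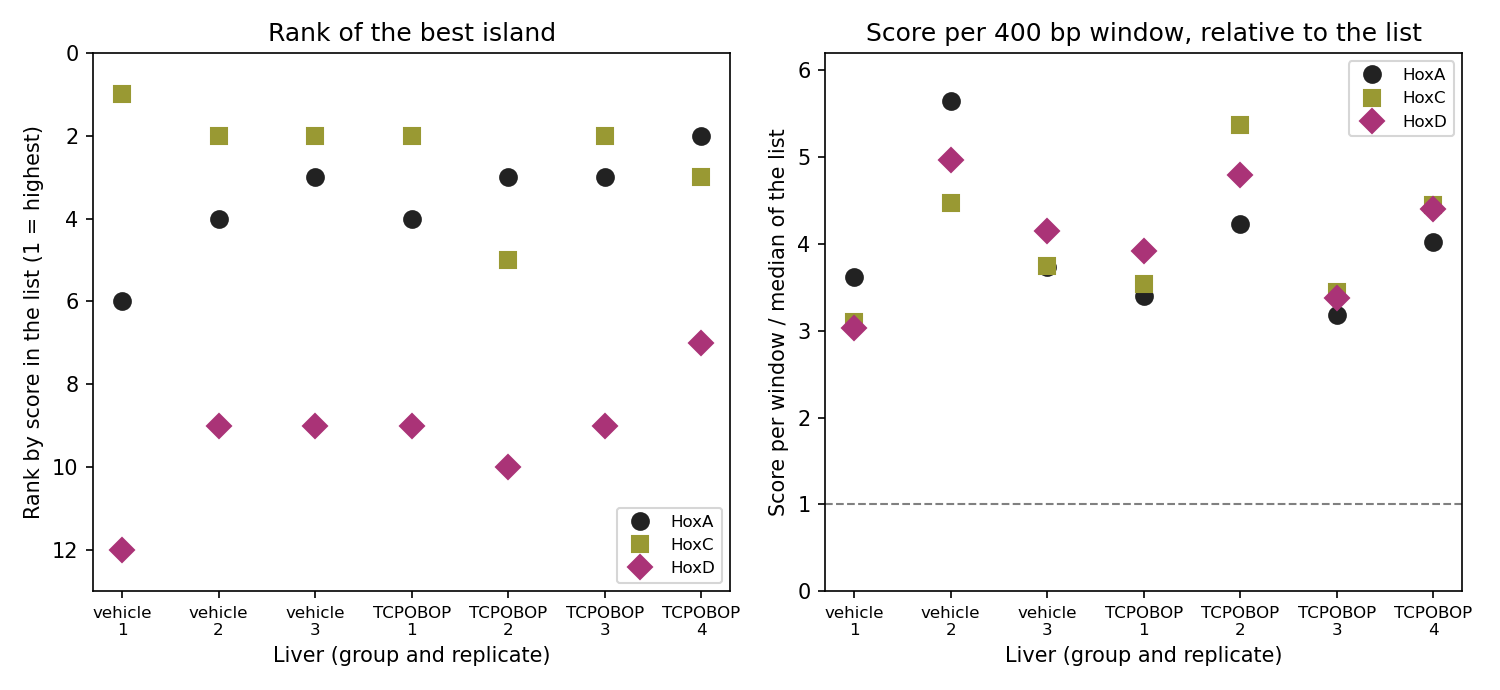
Rank by score (left, 1 is the highest) and score per 400 bp window relative to the median of the list (right) for the best island of HoxA, HoxC and HoxD in each liver. HoxD ranks between 7 and 12 and the other 2 between 1 and 6, while all 3 lie between 3.03 and 5.65 times the list median by density.

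HoxB, the remaining Hox cluster, is set beside them as a description. The merged region that holds it, on chromosome 11 from 95952401 to 96253200, had no island over HoxB in the lists of vehicle replicate 1 and TCPOBOP replicates 3 and 4. In vehicle replicates 2 and 3 and TCPOBOP replicates 1 and 2 the cover of HoxB was 98.3%, 100%, 100% and 100%, with best islands ranked 10, 5, 5 and 2. HoxA, HoxC and HoxD had islands in all 7 lists, those 3 included. The next island above HoxB began between 96256401 and 96257201 in every list. In those 3 lists an island that was not called and one missing from the list as used here cannot be told apart. An added island there could shift the score ranks of HoxA, HoxC and HoxD in these lists.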

How the data were processed

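H3K27me3 chromatin of 7 livers was sequenced by the submitters, 1 library per animal. Bowtie2 2.3.2 and SICER 1.1 with mm9 are named in the submitters' processing notes. The deposited lists carry their settings in their names: windows of 400 bp, gaps up to 2400 bp, E-value 100. Each deposited list gives islands of 1 liver with the authors' score. Control, filters and duplicate handling are not given in the sources used here. Islands are called within each library, so a uniform shift in level would be missed.

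Livers were grouped by their titles. Cover and extensions were compared with two-sided exact permutation tests, with intervals from inverting them. Cover of merged regions and of 10 kb bins with an island in at least 2 livers and unequal cover was fitted with limma 3.58.1 (R 4.3.3, trend and robust variance, Benjamini-Hochberg over all features). The limma computation was tested on simulated normal values with steps far above their spread. This does not measure its power on the bounded covers used here. Other steps used Python 3.11.15 and NumPy 2.4.6. Sequences came from RefSeq tables of GRCm38.p6, by symbol. By the rule, the windows, their regions, breaks inside windows and bins with groups apart were named in full. Members, lists and tests were chosen with earlier results of these data known. Joining islands across 4.8 kb was added after the data were examined. The other alternatives were left-out livers, a replicate block, islands at or above the median score, lists of equal total length, wider windows, other bin sizes, no filter and plain limma.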

Additional observations from a re-analysis of the deposited data

Results flagged for a closer look

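Of the 9 measures of cover and extension, 8 varied among the 4 TCPOBOP livers, and in 3 of these a TCPOBOP liver lay far from the other 3. The flag marks a liver whose gap to the nearest value takes up most of the range of the group. For independent values from a normal distribution this happens in about 1 group in 20. That rate need not hold here, since an extension jumps where a break splits an island, so no excess is read from the count. At the Evx1 end of HoxA, TCPOBOP replicate 3 had an extension of -6.8 kb against 6.8 to 8.0 kb, a value it shared with vehicle replicate 1. At the Evx2 end of HoxD the same liver had 16.8 kb against -0.8 to 1.6 kb, near the 18.0 kb of vehicle replicates 1 and 2. With islands joined across gaps of up to 4.8 kb it no longer stood apart there. It had 16.8 kb, against 1.6, 31.2 and 19.2 kb in TCPOBOP replicates 1, 2 and 4. Joining left the TCPOBOP values at the Evx1 and Hoxd1 ends unchanged. At the Hoxd1 end, TCPOBOP replicate 4 had 31.6 kb against 42.4 to 43.2 kb, and vehicle replicate 2 had 34.4 kb.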

How the results depend on the processing

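None of the 9 tests of the clusters had p under 0.05 in the reported setting, so the alternatives bear on sizes and signs. For HoxC cover, equal in every liver, that outcome was fixed. Fits without a vehicle liver cannot give a p below 0.0667, those without a TCPOBOP liver none below 0.1 and the block none below 0.25, so their p-values say nothing of stability. Of the settings with all 7 livers, the lowest p was 0.0571, for a difference of -13.6 kb at the Evx2 end with islands at or above the median score of their list. Leaving out 1 liver in turn gave differences from -0.952 to 1.33 percentage points for HoxA cover, -1.07 to -0.267 for HoxD cover and 0 throughout for HoxC cover. The extensions ranged from -6.2 to 42.6 kb at the Hoxa2 end, -4.0 to 4.53 kb at the Evx1 end, -84.4 to -31.7 kb at the Hoxc13 end, -7.5 to 0.1 kb at the Hoxc4 end, -13.7 to -5.5 kb at the Evx2 end and -2.6 to 2.93 kb at the Hoxd1 end. Among the other settings 3 turned a sign. With islands at or above the median score of their list the Evx1 difference was -1.13 kb; the 3 small islands after the break lay below it. With a wider window HoxD cover differed by 1.63 percentage points and HoxC cover by -1.71. With joined gaps the difference was 0.9 kb at the Hoxc13 end, 5.2 kb at the Hoxa2 end, -0.833 kb at the Hoxc4 end and -1.2 kb at the Evx2 end. With lists of equal total length the Evx1 difference was 2.57 kb. For merged regions limma called 13 without trend and robust variance and 1 with no filter on islands, and for bins of 10 kb 173 without trend and robust variance; 0 of these lay in the clusters and the cause was not tested. It called 0 bins or regions in the other settings.

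The replicate numbers were tried as a block over replicates 1 to 3. The block gave 0.381 and -0.889 percentage points for HoxA and HoxD cover, 24.3 and 0 kb for the ends of HoxA, -47.7 and -5.6 kb for those of HoxC and -6.53 and 2.93 kb for those of HoxD, with 0 calls of limma for regions and for bins. Deviations from the group means over merged regions correlated at 0.0269, 0.278 and 0.0693 for the pairs 1, 2 and 3. The 0.278 was the highest of all pairs of a vehicle and a TCPOBOP liver. Both livers of pair 2 also had the shortest total island length, 537.2 Mb each, against 582.8 to 604.6 Mb in the others. Their median scores per window, 3.02 and 3.05, were the highest, with at most 2.79 in the others. Only these livers had full cover of the HoxA window, and a cause was not tested. Whether livers of the same number shared more than that number is not settled by these values. Vehicle replicate 2 correlated best with its own number, and vehicle replicates 1 and 3 did not. The lists hold no read numbers, so the depth behind an edge or a break is unknown.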
